A study of Mus musculus with 15 samples.

Results

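Cymopol is a brominated hydroquinone with a prenyl-derived side chain, known from the green alga Cymopolia barbata. The lower of its doses was compared here with the vehicle in the large intestine of male C57Bl/6 mice aged 4 weeks. Every mouse received an oral gavage on 3 consecutive days, and the large intestine was collected 12 h after the final dose. The vehicle group received Chremophor EL with 10% DMSO alone, and the low-dose group received cymopol at 0.3 mmol/kg in the same carrier, so that both groups carried the solvent. A higher dose, 1.4 mmol/kg, given in the same way, is used below for the comparison between doses. Each group holds 3 of the series' 15 libraries, numbered 2, 4 and 5 for the vehicle, 33, 34 and 35 for the low dose and 11, 12 and 14 for the high dose. Whether a group's libraries come from separate mice is not stated, so p-values rest on the spread between libraries only. In the main test that spread is pooled over genes of similar level and is not that of each gene alone.

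Hydroquinones can be oxidised to quinones, which react with thiols. In many cells such compounds release the transcription factor NRF2 from its inhibitor KEAP1, and NRF2 then raises genes for quinone reduction, glutathione synthesis and thioredoxin recycling. In the large intestine the surface epithelium consists mainly of absorptive colonocytes and of goblet cells, which secrete the mucin gel and the trefoil peptide TFF3.

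The genes compared were those with a deposited row under their own Ensembl identifier in each of the 6 tables that reached an FPKM of 1 in 3 or more libraries. FPKM is a level scaled by transcript length and library size. Of 37502 genes with a row in any of the 6 tables, 28335 had one in all 6, and 837 passed the filter, 730 of them protein-coding. The number is small because most expressed genes stand in each table as loci assembled anew in that library, without a shared identifier. Such loci held 69.0% to 76.9% of the genes at an FPKM of 1 or more in these 6 libraries. An extended gene table was therefore made as well, in which assembled loci were given to annotated genes by their position, and 6703 genes passed the same filter there. Results are from the extended table unless the 837 genes are named.

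Depth differed widely between libraries. Fragments in protein-coding genes, estimated from the width of the deposited FPKM intervals, ranged from 25172 to 226383 over the vehicle group and from 31748 to 182958 over the low-dose group. Vehicle library 2 stood apart, with 8.51% of its estimated fragments in genes and 46.8% in loci between genes. In the other 5 libraries the share in genes was 34.0% to 71.5%. Among the 6703 genes, 1.4% to 30.2% were listed at an FPKM of 0 in a library, and ribosomal protein genes, which every cell uses, were among them. A value of 0 is therefore given only as listed at 0. Surface colonocyte markers, the check of the labelled tissue, were above 0 in 19 or 20 of 20 members in all 6 libraries, with a summed FPKM of 237, 1838 and 3908 in the vehicle and 862, 3772 and 4480.3 in the low-dose group.

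No gene passed the test between low-dose cymopol and vehicle. With limma on log2(FPKM + 1) and Benjamini-Hochberg adjustment, 0 of the 837 genes (0%) and 0 of the 6703 genes (0%) were called at an adjusted p under 0.05. The smallest adjusted p from limma was 0.708 and 0.806. At an unadjusted p under 0.05, 31 of the 837 genes were higher (3.7%) and 2 lower (0.239%) in the low-dose group. Of the 6703 genes 130 were higher (1.94%) and 26 lower (0.388%). All 3 low-dose values lay above all 3 vehicle values for 337 of the 6703 genes (5.03%), and all below for 64 (0.955%). An exact permutation test of 3 libraries against 3 cannot go below p = 0.1.

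The number of higher genes, and its excess over that of lower genes, depended on single libraries of both groups. The 130 higher genes became 18 without low-dose library 34, 26 without low-dose library 35 and 47 without vehicle library 5. Each of these fits held fewer libraries, and the filter was applied anew. Leaving out a low-dose library thus removed the genes that had passed through that group alone. The part of this in the lower numbers was not tested. The median difference, low dose minus vehicle on the log2(FPKM + 1) scale, was 0.30 over the 6703 genes. It was -0.28 without vehicle library 2, when 84 genes were higher and 171 lower at an unadjusted p under 0.05, and 0.80 without vehicle library 4, when 355 genes were higher. Scaling the libraries by the median of ratios brought the median to 0.005, with 174 higher and 136 lower genes. The direction of the average gene thus depends on scaling and on which libraries are used, and each group below is read against the median of all genes.

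**Figure D1:**
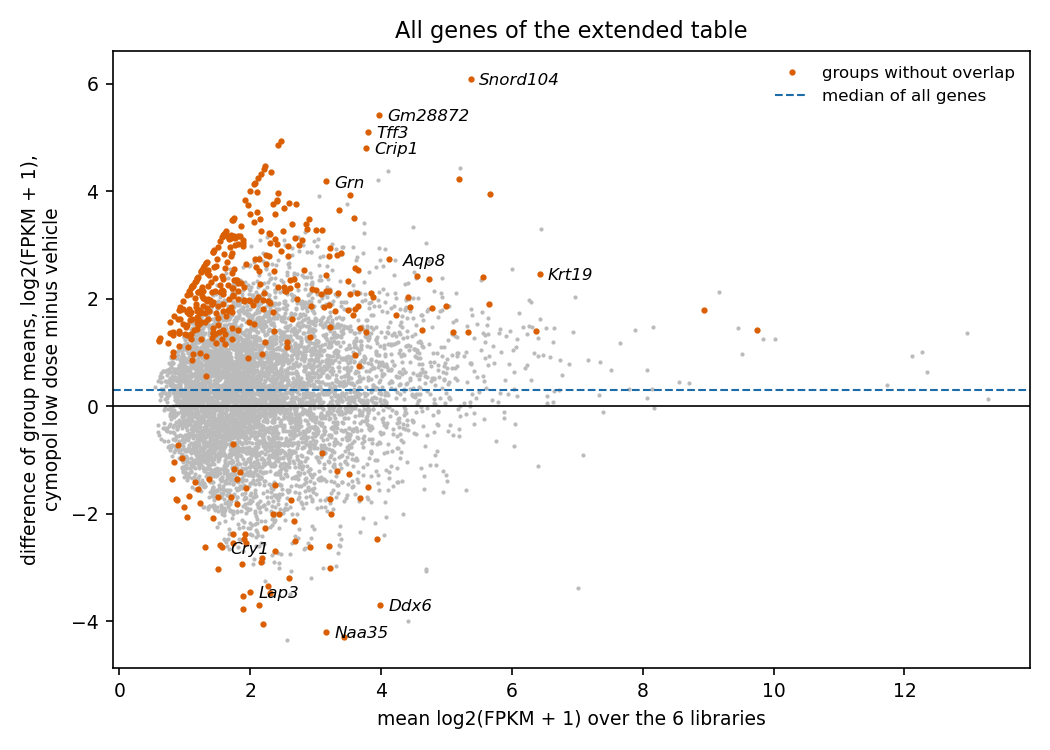
Each point is 1 of the 6703 genes, by its mean log2(FPKM + 1) over the 6 libraries (horizontal) and the difference of group means, cymopol low dose minus vehicle (vertical). Genes whose groups did not overlap are orange, 337 above and 64 below; they lie mainly at low mean levels, and the dashed line marks the median of all genes, 0.30.

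Among the protein-coding genes of the extended table the smallest p belonged to Tff3 (ENSMUSG00000024029), the trefoil peptide of goblet cells, which lies on the minus strand of chr17:31125306-31129646 in GRCm38. Its FPKM was 0.406, 8.42 and 0 in vehicle libraries 2, 4 and 5, and 40.3, 133 and 96.1 in low-dose libraries 33, 34 and 35. All 3 low-dose values were above every vehicle value, and they rested on about 20, 38.9 and 73.6 fragments against 1, 7 and 0. The difference was 5.10 ± 1.75 (SE, n = 3 per group) among the 837 genes, with an adjusted p of 0.730 from limma, and 5.10 ± 1.61 with an adjusted p of 0.999 in the extended table. In a voom fit on the estimated fragments Tff3 passed, with an adjusted p of 0.0327 among the 837 genes and 0.0461 in the extended table. It also passed with libraries weighted by their quality in the extended table, at an adjusted p of 0.00567. Over the alternatives run on the extended table its difference stayed positive, from 3.11 to 6.73. Without vehicle library 2 it was 4.73. In bulk tissue a different number of goblet cells and a different amount of RNA per goblet cell cannot be told apart, and the same holds for the other cell types below.

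The other goblet cell genes had smaller differences. All 8 measured goblet markers were above 0 in the difference, with a median of 1.38, where 61.7% of the 6703 genes were above 0 with a median of 0.30. The median of the markers was 1.09 with median-of-ratios scaling and 0.51 without vehicle library 2, when 6 of 8 were above 0. Muc2, the main mucin of the colon, had an FPKM of 24.2, 396 and 119.6 in the vehicle and 52.4, 281 and 482 in the low-dose libraries. Clca1, a secreted protein of the mucus, had 6.10, 23.5 and 46.9 against 18.1, 183 and 65.9. Fcgbp, the mucus protein that binds IgG Fc, had 8.88, 37.6 and 54.8 against 21.8, 182 and 69.2. For Muc2, Clca1 and Fcgbp the groups overlapped, and low-dose library 33 was below vehicle libraries 4 and 5 in each case. Fcgbp was called by voom in the extended table, with an adjusted p of 0.0263, but not by limma (adjusted p = 0.999).

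Markers of absorptive colonocytes were also above 0. All 20 surface colonocyte markers were above 0 in the difference, with a median of 1.31. Without vehicle library 2, 12 of 20 were above 0 and the median was 0.21, beside -0.28 for all genes. Krt19, a keratin of simple epithelia, had an FPKM of 9.85, 40.4 and 108 in the vehicle and 116, 214 and 325 in the low-dose libraries, so the groups did not overlap. Its difference was 2.46 ± 1.54 (SE, n = 3 per group), with an adjusted p of 0.999 from limma, and it was 1.59 without vehicle library 2. Lypd8, which keeps flagellated bacteria off the epithelium, had 30.7, 354 and 451 against 163, 984 and 667. Car1, the carbonic anhydrase abundant in colonocytes, had 40.5, 421 and 1889 in the vehicle and 212, 269 and 1474 in the low-dose libraries, with full overlap. Aqp8, a water channel of surface colonocytes, had 5.63, 0 and 56.0 against 13.4, 117 and 62.8. It was called by voom at an adjusted p of 0.0461 but not by limma (adjusted p = 0.999). Among 17 measured ion and fluid transport genes all were above 0, with a median of 1.24, and none reached an unadjusted p under 0.05. Without vehicle library 2, 10 of 17 were above 0 and the median was 0.34.

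Markers of other cell types differed in direction. All 12 smooth muscle markers were above 0 in the difference with a median of 0.93, and 11 of 11 fibroblast markers with a median of 0.67. Without vehicle library 2 these medians were 0.18 and -0.13. Both measured red blood cell markers were above 0, with a median of 2.33 that was 2.14 without vehicle library 2, and the list summed to 11.0, 75.5 and 3.22 in the vehicle and 26.6, 226 and 207 in the low-dose libraries. The 2 measured B and plasma cell markers and the 4 measured MHC class II genes were all below 0, with medians of -1.75 and -0.64, and 2 of 5 macrophage and granulocyte markers were above 0, with a median of -0.12. Without vehicle library 4 the medians were -0.30, 1.14 and 1.76 in the same order, over the members that then passed the filter, beside 0.80 for all genes. The direction of the MHC class II and macrophage lists thus depended on that library. The summed FPKM of the 12 smooth muscle markers was 123, 1336 and 503.4 in the vehicle and 727, 1007 and 1247 in the low-dose libraries. Fat cell markers summed to 13.7, 668 and 39.2 against 133, 123 and 520.3, so that vehicle library 4 was the highest and vehicle library 2 the lowest of the 6. B and plasma cell markers summed to 3.70, 587 and 65.4 against 38.1, 29.8 and 8.41, and MHC class II genes to 1.66, 697 and 37.2 against 25.6, 49.7 and 25.7. Vehicle library 4 thus held most of the lymphoid signal, and the part of these cell types in the gene differences was not tested. Hepatocyte markers summed to 1.06 to 56.5 over the 6 libraries and pancreatic acinar markers to 0 to 9.24, with 2 and 0 members past the filter.

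**Figure D2:**
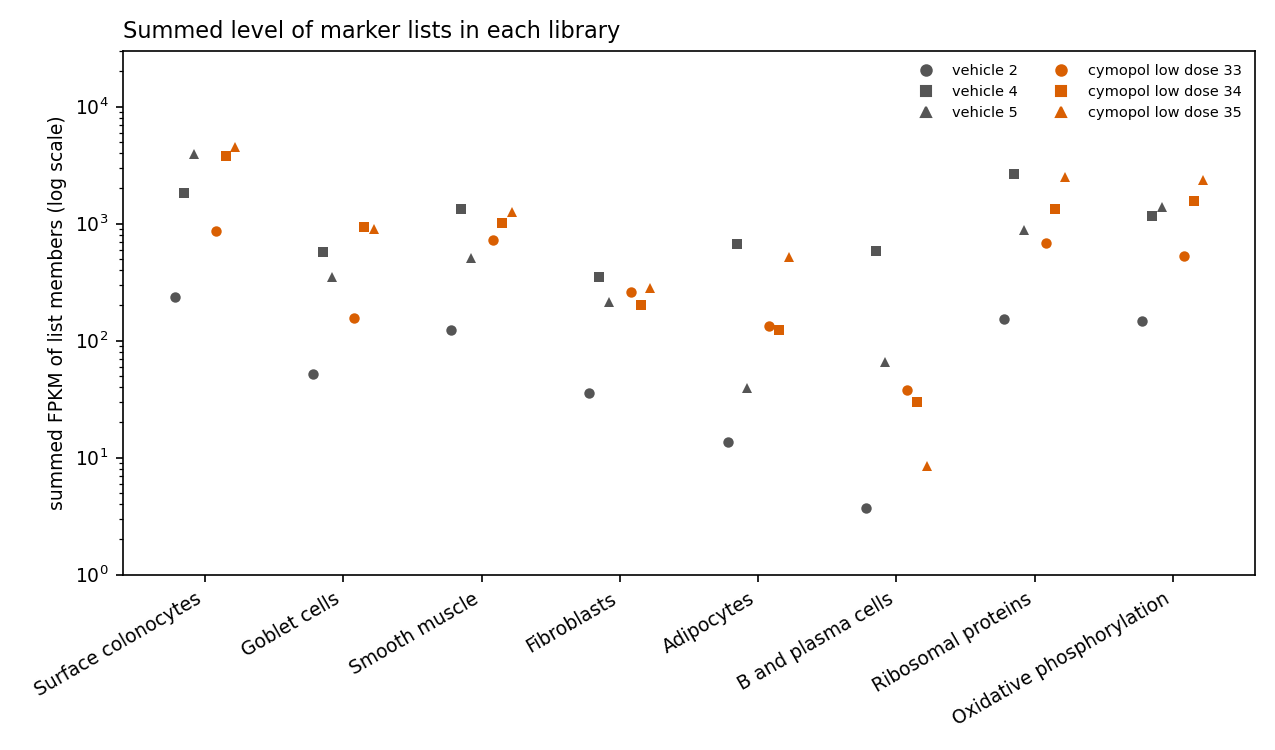
Summed FPKM of 8 gene lists (vertical, log scale) in each of the 3 vehicle (grey) and 3 low-dose (orange) libraries, 1 symbol per library. Vehicle library 2 was the lowest of the 6 for all lists shown, and vehicle library 4 was the highest for several of them, fat cells and B and plasma cells included.

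The remaining genes with the smallest p among higher protein-coding genes were chosen by non-overlap and at least 10 estimated fragments in at least 2 low-dose libraries, a condition that 90 genes met. Crip1, a small LIM protein of the intestine on chr12:113146316-113153879, had an FPKM of 5.06, 1.83 and 0 in the vehicle and 20.1, 138 and 126 in the low-dose libraries. Its difference was 4.80 ± 1.61 (SE, n = 3 per group), with an adjusted p of 0.999 from limma and of 0.00567 with library weights. Grn, the precursor of the lysosomal granulins, had 0.802, 4.15 and 0 against 23.9, 83.3 and 25.4. Map1lc3a, an LC3 protein of the autophagosome membrane, had 0.524, 0.763 and 0 against 22.5, 13.8 and 17.9. Lamtor2, part of the lysosomal anchor of mTORC1, had 0, 24.9 and 0 against 38.5, 50.2 and 44.2. These 4 genes were separated between groups, and none was called by limma, with an adjusted p of 0.999 for each. Map1lc3a passed the filter on low values through the low-dose group alone, so its separation supports no difference.

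In this set 5 genes were listed at 0 in all 3 vehicle libraries, for which no fold is given. Cnpy2, an endoplasmic reticulum protein, had an FPKM of 14.5, 45.5 and 4.65 in the low-dose libraries. Mark4, a microtubule-affinity regulating kinase, had 28.4, 6.72 and 12.0. Wls, which carries Wnt proteins to the cell surface, had 8.56, 13.0 and 5.13. All 3 were above 0 in every low-dose library, with an adjusted p of 0.999 each from limma. Dera, the deoxyribose-phosphate aldolase, had 6.34, 8.32 and 10.5 from about 13, 9 and 29 fragments. Lrrc6, a factor for the assembly of ciliary dynein arms, had 9.59, 17.2 and 5.83 in the low dose and was listed at 0 in the 3 high-dose libraries too. Rarres2, the precursor of the chemoattractant chemerin, was not in the set, was listed at 0 in the vehicle and had 15.1, 51.9 and 32.8. Nhlrc2 had 4.47, 2.93 and 11.1 against 0 in all 3 vehicle libraries. Dera was called by voom among the 837 genes (adjusted p = 0.0327), and Rarres2 and Nhlrc2 in the extended table (adjusted p = 0.0461 for each). All 3 passed the filter on low values through the low-dose group alone, where they are high, so these calls are descriptions and support no difference. Cnpy2, Mark4, Wls and Lrrc6 also passed it through that group alone, so their separation supports no difference.

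Among the 837 genes 24 protein-coding genes met the same condition for higher values and 0 for lower ones. Beside Tff3 and Dera the smallest p-values were those of Fam210b, Gtf2f1, Hprt, Pllp, Epha1, Mep1b, Pnmal2 and Ado. Hprt, the purine salvage enzyme often used as a reference gene, had an FPKM of 0, 3.97 and 0 in the vehicle and 10.9, 13.5 and 7.66 in the low-dose libraries. Mep1b, the beta subunit of the brush border protease meprin, had 0, 0.751 and 0 against 5.52, 1.12 and 7.39. Fam210b, a mitochondrial protein, had 0.0530, 0 and 0 against 2.46, 2.28 and 2.78. The adjusted p of these 8 genes was 0.998 from limma. Mep1b, Fam210b, Gtf2f1, Epha1, Pnmal2 and Ado passed the filter on low values through the low-dose group alone, so their separation supports no difference.

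Lower values with the same separation were found for 25 protein-coding genes of the extended table. Naa35, an auxiliary subunit of the NatC N-terminal acetyltransferase on chr13:59585259-59635922, had an FPKM of 43.2, 63.5 and 18.9 in the vehicle and 0, 0 and 8.12 in the low-dose libraries. It had the smallest p of the 25, and its difference of -4.20 ± 1.60 (SE, n = 3 per group) had an adjusted p of 0.999 from limma. Its difference stayed between -6.43 and -3.26 in the alternatives. Ddx6, an RNA helicase of P-bodies that acts in mRNA decay and repression, had 18.6, 30.8 and 296 against 0.534, 4.34 and 9.29. Caprin2, an RNA-binding protein, had 4.43, 10.9 and 93.2 against 0.712, 1.95 and 0.562. Vehicle library 5, with the fewest fragments, was the highest for both Ddx6 and Caprin2.

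Cry1, a repressor of the circadian clock, had 29.4, 3.00 and 2.33 in the vehicle and 0, 0 and 0.702 in the low-dose libraries, and vehicle library 2 was the highest. Of 15 measured clock genes 9 were above 0 in the difference, with a median of 0.32. Without vehicle library 2 only 13 clock genes passed the filter, Cry1 not among them, and their median was 0.01. Tef, an output factor of the clock, was separated in the other direction, with 2.13, 9.02 and 4.71 against 21.6, 9.07 and 15.5. Duox2, the hydrogen peroxide-producing oxidase of the epithelium, had 53.9, 2.29 and 9.37 against 0.528, 0 and 1.88. Carm1, an arginine methyltransferase that acts on histones, had 9.60, 31.0 and 6.02 against 1.57, 0 and 2.33. Lap3, a leucine aminopeptidase, had 8.87, 17.9 and 11.7 against 0, 0 and 0.770. Cry1, Lap3 and Ccdc58 passed the filter on low values through the vehicle group alone, so their separation supports no difference. Ccdc58, Atp8a1 and Rrnad1 complete the 10 with the smallest p, and no lower gene of this set had an adjusted p below 0.999. Slc35b4 and Dock10, which were called as lower by voom (adjusted p = 0.0461 for each), were not among them. Dock10, an exchange factor for small GTPases in lymphocytes, had 4.43, 38.0 and 0 against 0.170, 0 and 1.77, so that its groups overlapped and vehicle library 4, with the most B cell signal, was the highest.

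**Figure D3:**
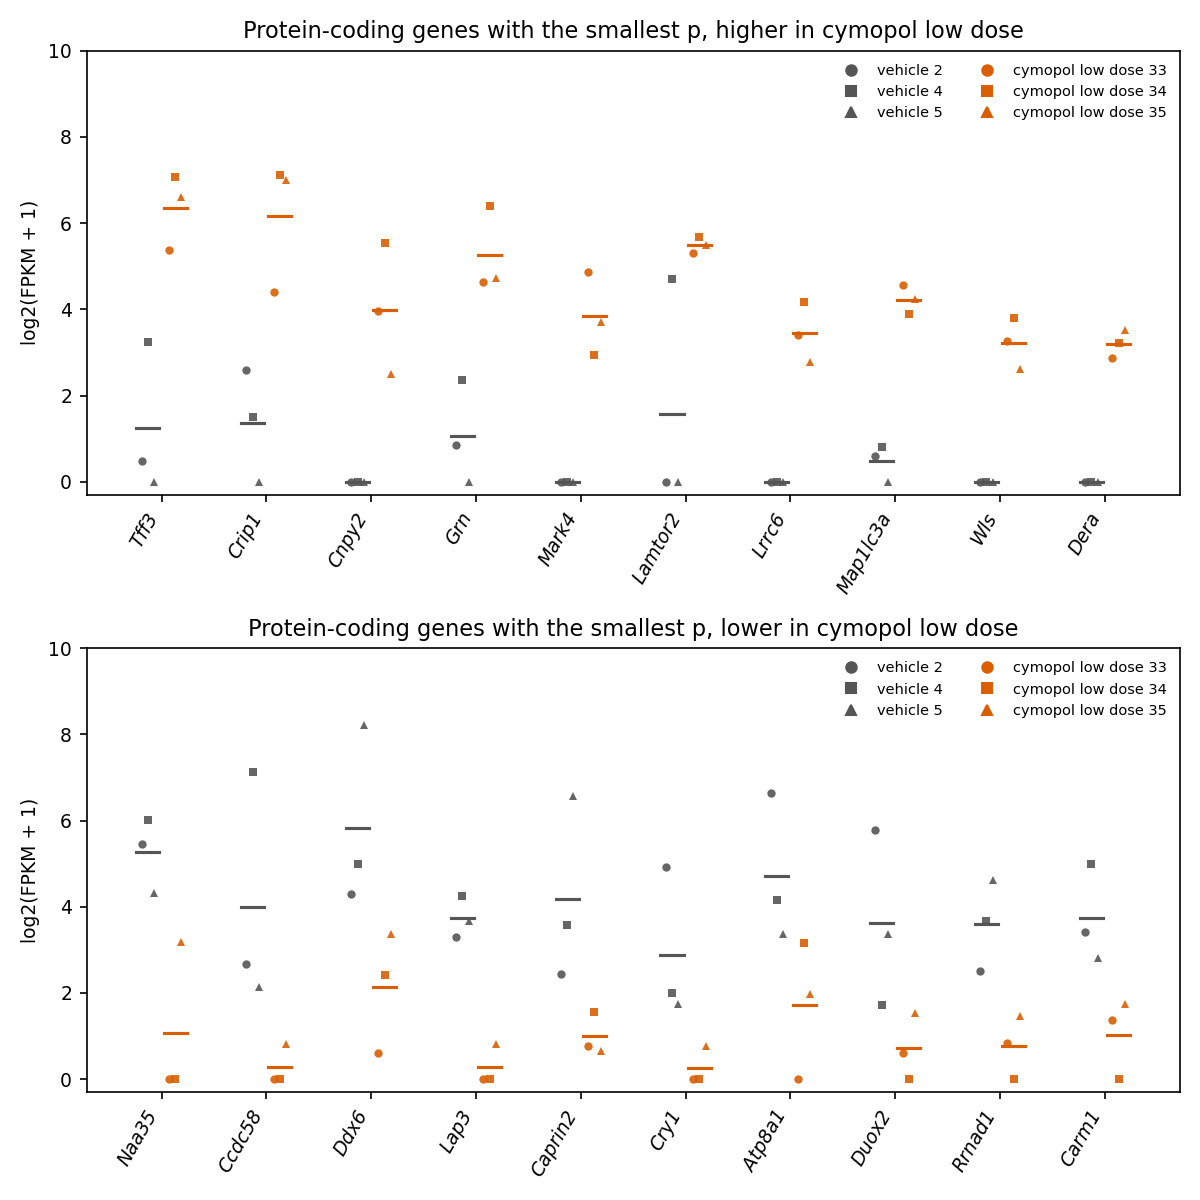
log2(FPKM + 1) (vertical) of the 10 higher and the 10 lower protein-coding genes with the smallest p, for the 3 vehicle (grey) and 3 low-dose (orange) libraries; symbols mark libraries and bars the group means. The groups do not overlap because non-overlap was a condition of choice, and in 5 of the higher genes all 3 vehicle values are at 0.

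No NRF2 target was called between the low dose and the vehicle. Of 41 measured members of the NRF2 lists, 3 had low-dose values all above the vehicle, beside 5.03% of all genes. Nqo1, the quinone reductase used as the standard readout of NRF2, had an FPKM of 0.167, 0 and 0 in the vehicle and 0, 0 and 6.64 in the low-dose libraries, so that it passed no filter and was not tested. The 3 high-dose libraries had 5.15, 5.31 and 4.19. Low-dose library 35, the deepest of its group, was thus the only low-dose library with Nqo1 above 0. Hmox1, the heme oxygenase, had 0 in all 3 vehicle libraries and 0, 0 and 4.79 in the low dose. Gsta4, a glutathione transferase for lipid aldehydes, was listed at 0 in the vehicle and had 0, 3.23 and 10.3. Gpx2, the gastrointestinal glutathione peroxidase, had 0.447, 0 and 0 against 0, 1.31 and 6.78. Nqo1, Hmox1, Gsta4 and Gpx2 were highest in low-dose library 35 and were at 0 in library 33, which had 31748 estimated fragments against 182958. The part of depth in this order was not tested.

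The enzymes that make glutathione gave no common direction. Gclc, the catalytic subunit of glutamate-cysteine ligase, had an FPKM of 0.253, 17.1 and 0 against 0.207, 10.2 and 20.5, a difference of 1.23 ± 1.54 (SE, n = 3 per group) with an adjusted p of 0.999 from limma. Gclm, its modifier subunit, had 5.64, 23.6 and 12.4 against 1.73, 0 and 22.2, a difference of -1.70 ± 1.59. Gstm1, a glutathione transferase, had 2.28, 14.2 and 25.8 against 13.4, 39.7 and 105. Its difference was 1.85 ± 1.61 and fell to 0.97 without vehicle library 2. Slc7a11, the cystine importer, was listed at 0 in all 3 low-dose libraries and had 0.402, 0 and 0 in the vehicle. Gsta1 had 0, 3.94 and 0 against 0, 0 and 0.707. In the glutathione list 7 of 10 measured members were above 0, with a median of 0.52, and 0 reached an unadjusted p under 0.05. Without vehicle library 2, 3 of 10 were above 0 and the median was -0.59.

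Among the reductases Akr1b8, an aldo-keto reductase for reactive aldehydes, had the largest difference of the list. Its FPKM was 1.26, 0 and 0 in the vehicle and 0, 26.7 and 12.8 in the low-dose libraries, a difference of 2.47 ± 1.37 (SE, n = 3 per group) with an adjusted p of 0.999 from limma. Low-dose library 33 overlapped the vehicle. Cbr3, a carbonyl reductase, had 0, 0 and 15.4 against 3.26, 6.21 and 20.3. Of 8 measured reductases 5 were above 0, with a median of 1.28. Without vehicle library 2 only 6 members passed the filter, and Akr1b8 was not among them. Of these 6, 3 were above 0, with a median of -0.17, so the medians are not over the same genes. Txnrd1, which reduces thioredoxin, had 0.831, 2.89 and 11.2 against 0.237, 12.3 and 72.8, and Srxn1, which repairs peroxiredoxins, had 1.20, 2.24 and 7.20 against 0, 5.73 and 12.8. The differences of Txnrd1 (1.27) and Srxn1 (0.22) were negative under some alternatives, by voom and without low-dose library 35 for Txnrd1, and for Srxn1 with a smaller pseudocount, with scaling and without vehicle library 2 or low-dose library 34 or 35. Estimated fragments of Txnrd1 were at most 0.00869 in any of the 6 libraries, so its voom value gives no direction.

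A few members of the NRF2 lists had separated groups without passing the test. Prdx1, a peroxiredoxin that removes peroxide, had an FPKM of 2.09, 15.5 and 5.55 in the vehicle and 37.1, 29.5 and 21.9 in the low-dose libraries. Sqstm1, the autophagy receptor p62 that also binds KEAP1, had 2.68, 19.4 and 14.5 against 22.2, 60.1 and 55.0. Pgd, which makes NADPH in the pentose phosphate pathway, had 0.677, 13.3 and 15.2 against 20.4, 24.0 and 47.9. The adjusted p of Prdx1, Sqstm1 and Pgd was 0.999 from limma. These 3 were the members higher without overlap among 41 measured members of the NRF2 target and regulator lists beside a background of 5.03% of all genes. None of the 41 was lower without overlap, beside 0.955% of all genes. Cyp1a1, the standard target of the aryl hydrocarbon receptor, was listed at 0 in all 6 libraries, and in the high-dose libraries it was 0, 1.22 and 0.107.

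**Figure D4:**
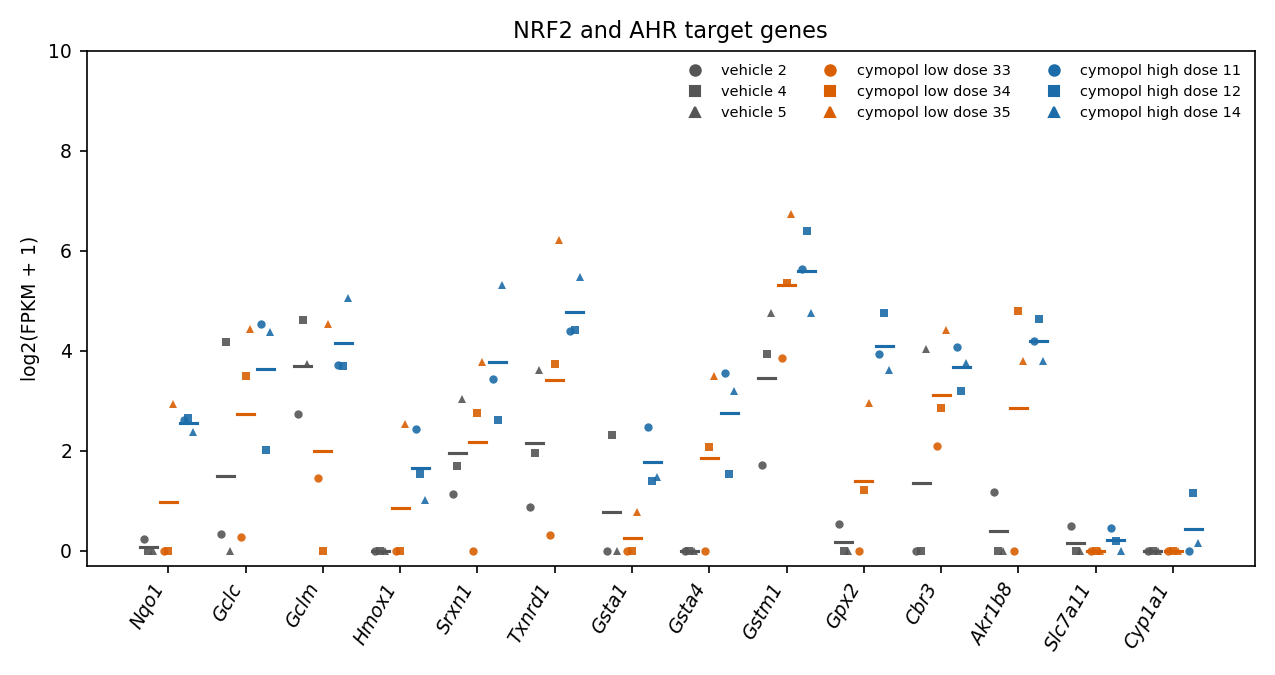
log2(FPKM + 1) (vertical) of 14 NRF2 and AHR target genes in the vehicle (grey), low-dose (orange) and high-dose (blue) libraries, with group means as bars. Low-dose library 33 (circles) is at or near 0 for most of the genes, and Nqo1 is above 0 in all 3 high-dose libraries but in 1 low-dose library.

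Genes of oxidative phosphorylation had a median difference of 0.96, with 35 of 43 measured members above 0. The median was 0.20 without vehicle library 2, with 24 of 43 above 0. Cox7c, a cytochrome c oxidase subunit, was listed at 0 in the 3 vehicle libraries and had an FPKM of 22.9, 21.0 and 19.2 in the low-dose libraries (adjusted p = 0.999 from limma). Ndufv2, a subunit of complex I, was also at 0 in the vehicle and had 2.54, 1.67 and 12.6. Cox6a1 had 1.78, 57.3 and 51.5 against 61.3, 139 and 143, and Sdhc had 0.780, 14.8 and 8.81 against 23.8, 28.2 and 15.3. Cox7c, Ndufv2, Cox6a1 and Sdhc were the members without overlap, 4 of 43 against 5.03% of all genes, and none was called. Cox7c and Ndufv2 passed the filter on low values through the low-dose group alone, so their separation supports no difference.

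Ribosomal protein genes had a median of 0.75, with 30 of 42 above 0, and -0.05 without vehicle library 2. Of these 42 genes 2 were higher without overlap, beside 5.03% of all genes. Rpl15, a protein of the large ribosomal subunit, was among them, with an FPKM of 0, 6.06 and 0 in the vehicle. It had 9.63, 43.0 and 16.3 in the low-dose libraries (adjusted p = 0.999 from limma). Proteasome subunits had a median of -0.24, with 10 of 22 above 0. Psma7 was the member without overlap, 1 of 22 beside 5.03% of all genes, with 1.07, 0.583 and 10.8 against 35.4, 19.6 and 22.0. Lists of lipid metabolism lay at or below the median of all genes, at -0.13 for fatty acid synthesis (6 of 13 above 0), 0.21 for cholesterol synthesis (8 of 13) and 0.09 for fatty acid oxidation (9 of 16). These medians became -0.95, -0.61 and -0.48 without vehicle library 2, when 12 cholesterol synthesis genes passed the filter. Scd1, the stearoyl-CoA desaturase, had 4.40, 305 and 54.0 in the vehicle and 32.0, 25.5 and 78.9 in the low dose, and vehicle library 4 was the highest.

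Of the stress lists only the p53 targets kept a median above 0 without vehicle library 2. The medians were 0.44 for heat shock (9 of 11 above 0), 0.47 for the unfolded protein response (11 of 14), 0.72 for ATF4 targets (5 of 6) and 0.86 for p53 targets (4 of 6). In the same order they were -0.50, -0.16, -0.10 and 0.32 without vehicle library 2, beside -0.28 for all genes. Heat shock alone then lay below the median of all genes. Cdkn1a, the cell cycle inhibitor p21, had 3.28, 13.9 and 23.2 against 41.2, 22.0 and 39.8, with 1 low-dose library inside the vehicle range. Saa1, an acute phase protein of epithelium and liver, had 20.5, 1.15 and 0 in the vehicle and 9.16, 349.9 and 80.9 in the low-dose libraries. Its difference was 4.21 ± 1.61 (SE, n = 3 per group) with an adjusted p of 0.999 from limma, and it passed with library weights (adjusted p = 0.00854). The groups overlapped, and the high dose was as uneven, with 26.4, 637 and 21.9. Top2a and Pcna, genes of cycling cells, were higher without overlap among 5 measured crypt genes, beside 5.03% of all genes. The median of the 5 was 0.33, beside 0.30 for all genes, and low-dose library 33 was the highest for Top2a (32.0).

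**Figure D5:**
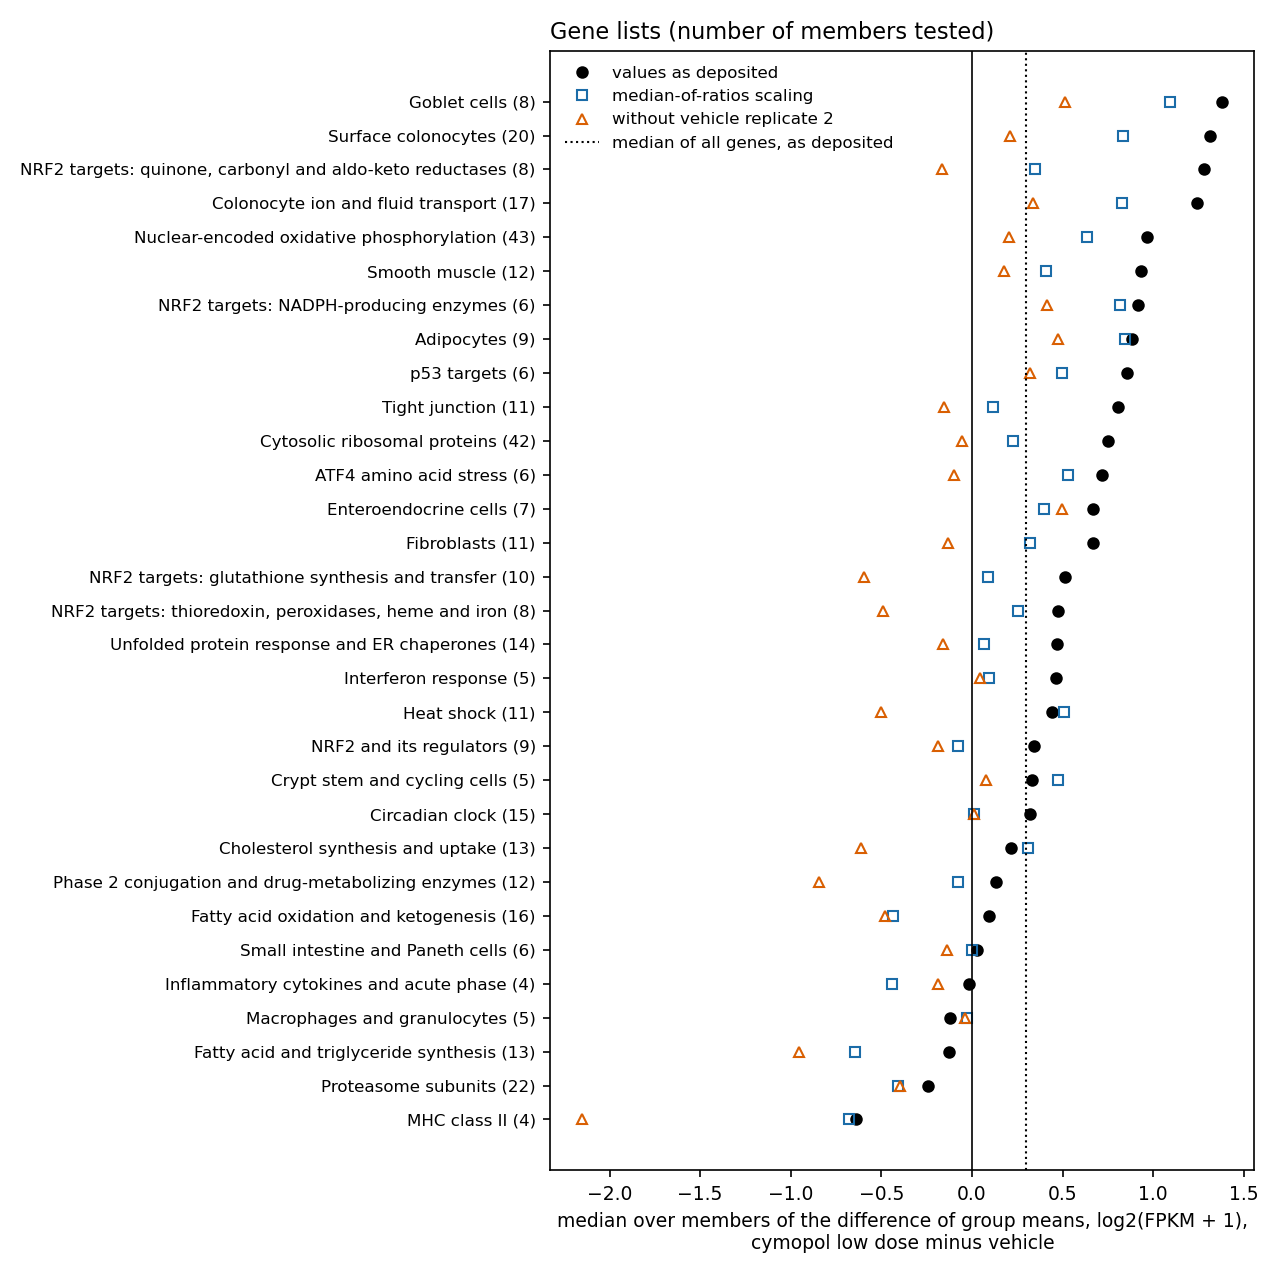
Median difference of the members of each list with at least 4 measured members, cymopol low dose minus vehicle on the log2(FPKM + 1) scale (horizontal), for values as deposited (black), with median-of-ratios scaling (blue) and without vehicle replicate 2 (orange). Goblet cells (1.38) and surface colonocytes (1.31) are at the top, MHC class II (-0.64) is at the bottom, and leaving out vehicle replicate 2 moves most lists to the left. Leaving out vehicle replicate 4, not shown, gave 1.14 for MHC class II.

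The smallest p of all genes in both tables belonged to a small nucleolar RNA, Snord104, and the lowest-p lower gene among the 837 was a small Cajal body RNA, Gm25492. Box C/D small nucleolar RNAs guide 2'-O-methylation of other RNAs and carry a C box near the 5' end and a D box near the 3' end. Their sequences are shown because a transcript this short turns 1 or 2 fragments into a high FPKM. They were taken from GENCODE M21 on GRCm38, and capitals mark TGATGA as C box and CTGA as D box. A search of the transcript strand found TGATGA followed by CTGA in 24.0% of 1507 small nucleolar RNA transcripts.
Snord104, chr11:106500993-106501062, plus strand, 70 bases: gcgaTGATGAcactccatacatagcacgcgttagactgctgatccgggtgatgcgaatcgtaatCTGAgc
Gm25492, chr5:135053988-135054116, minus strand, 129 bases, no match: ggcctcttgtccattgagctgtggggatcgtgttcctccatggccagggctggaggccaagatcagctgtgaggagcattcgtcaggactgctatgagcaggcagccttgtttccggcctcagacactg
Snord8, chr14:52209785-52209894, minus strand, 110 bases: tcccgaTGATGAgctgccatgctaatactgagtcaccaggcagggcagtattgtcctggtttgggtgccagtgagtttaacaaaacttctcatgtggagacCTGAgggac

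Snord104 had an FPKM of 0, 125 and 0 in the vehicle and 351, 333 and 336 in the low-dose libraries, from about 0, 1 and 0 fragments against 1.99, 1 and 1.99. No library held more than 1.99 fragments of it. Its difference was 6.09 ± 1.82 (SE, n = 3 per group), with an adjusted p of 0.708 from limma among the 837 genes. It passed with a pseudocount of 0.1, with library weights and without vehicle library 4 (adjusted p = 0.0380, 0.0237 and 0.0374). Gm25492 had 14.5, 45.2 and 152 in the vehicle and 0, 0 and 13.7 in the low dose, from about 1.99, 4 and 3 fragments against 0, 0 and 1 (adjusted p = 0.998 from limma). Both were named after their values were seen.

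The doses were compared directly, high minus low. Among 1012 genes with a row in all 6 libraries of these groups 0 were called (0%), with 75 higher (7.41%) and 4 lower (0.395%) at an unadjusted p under 0.05. Of the 8908 genes of the extended table, Snord8, whose sequence stands above, was the 1 called (0.0112%). Snord8 was listed at 0 in all low-dose and vehicle libraries and had an FPKM of 123, 113 and 15.7 in the high-dose libraries (adjusted p = 0.0130 from limma), from about 7, 7 and 1 fragments. It passed the filter through the high-dose group alone, so the call is a description and supports no difference. That call was lost under 8 alternatives, with an adjusted p of 0.0569 to 0.824. At an unadjusted p under 0.05, 6.57% of the 8908 genes were higher and 0.382% lower, and 9.82% were higher and 0.999% lower without overlap. The median difference of all genes between doses was 0.67, and the high-dose libraries held 287817 to 342007 estimated fragments in protein-coding genes against 31748 to 182958. Depth and dose cannot be told apart here. Under the rule that gave the 1012 genes, 40 genes were called when low-dose library 35, the deepest of its group, was left out. The filter was then applied anew, so the genes tested can differ from the 1012.

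Ran, the GTPase of nuclear transport, had an FPKM of 0, 2.14 and 0.988 in the low-dose and 58.3, 26.9 and 64.2 in the high-dose libraries, a difference of 4.69 ± 1.00 (SE, n = 3 per group) with an adjusted p of 0.103 from limma in the extended table. The vehicle had 0, 3.34 and 82.3, a range that spans both doses. mt-Nd6, a mitochondrially encoded subunit of complex I, had 0, 0 and 4.73 against 45.1, 79.7 and 40.9 (adjusted p = 0.102). Lrrc6, Pik3r2 and Map4 were the lower genes with the smallest p. Lrrc6 passed the filter on low values through the low-dose group alone, so its separation supports no difference. Pik3r2, a regulatory subunit of PI 3-kinase, had 43.8, 81.6 and 11.7 in the low dose and 5.01, 2.23 and 9.91 in the high dose, beside 0.996, 11.0 and 0 in the vehicle.

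Tff3 overlapped between the doses, with 72.3, 139 and 103 at the high dose and a difference, high minus low, of 0.33 ± 0.82 (SE, n = 3 per group; adjusted p = 0.910 from limma). Grn (22.9, 40.1 and 45.8) and Krt19 (237, 336 and 325) also overlapped between doses. Gpx2 did not overlap, with 14.3, 25.9 and 11.3 at the high dose, and its difference was 2.71 ± 1.05 with an adjusted p of 0.612 from limma. Cd68, a lysosomal protein of macrophages, was highest at the low dose, with 7.33, 11.6 and 5.56 against 0.611, 0.812 and 0 at the high dose and 0, 0.847 and 0 in the vehicle. Its adjusted p from limma was 0.999 against the vehicle and 0.595 between doses. In both comparisons Cd68 passed the filter on low values through the low-dose group alone, so its separation supports no difference. The comparison with the vehicle and that between doses share the low-dose libraries, so their values are given side by side only.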

How the data were processed

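RNA of the large intestine was measured as 1 library per sample. Per the labels' protocols, 90 ng of total RNA was depleted of ribosomal RNA and libraries were made with a low-input kit. Per the submitters' processing notes, the aligner was STAR 2.4.0j and the genome GRCm38.p4. Values were deposited as FPKM with a lower and an upper bound, in Cufflinks gene tracking columns per the file headers. The sources used here do not give the quantifier's version, settings or annotation.

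Gene names and positions are those of GENCODE M21. Where an identifier was repeated, the row with the longest span was kept. The extended gene table was added after seeing the data: a locus assembled in 1 library took the name of a gene that had no row there, provided their overlap made up 0.5 or more of their union and the match was the best for both. Fragments were estimated as the square of 2 FPKM divided by the distance to the upper bound. Of 45464 annotated rows with at least 1 fragment, 60.3% came within 0.05 of a whole number. The estimate is too low where isoforms share fragments.

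Differences were tested with limma 3.58.1 in R 4.3.3 on log2(FPKM + 1) with an intensity trend, two-sided, over the 6 libraries of a comparison, with a Benjamini-Hochberg adjusted p under 0.05 as threshold. Each SE is the moderated one of limma, drawn from genes of similar level, and is not the spread of the named gene alone. Differences understate the change of low genes. The scripts were tested on simulated data. Named genes are a fixed set of NRF2 and AHR targets, up to 10 protein-coding genes per direction with the smallest p (3 between doses) without overlap and with at least 10 estimated fragments in 2 libraries of the higher group, and for each list the 3 members with the highest FPKM. List members without overlap or with p under 0.05, small RNAs and genes called by voom were named after their values were seen. Members, 24 pathway lists and 19 cell type lists were chosen with earlier results of these data known. The symbols matched were 613 of 638.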

Additional observations from a re-analysis of the deposited data

Results flagged for a closer look

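Snord8 was called between the doses of cymopol in a direct comparison. It was listed at 0 in all 3 low-dose libraries, rested on about 7, 7 and 1 fragments in the high-dose libraries and passed the filter on low values through that group alone, so the call supports no difference, and it was lost under 8 alternatives. The difference, high minus low on the log2(FPKM + 1) scale, was 5.95, with an adjusted p of 0.0130 from limma over 8908 genes. It depends on the pseudocount, since all 3 low-dose libraries were listed at 0, and is no bound. Groups of 3 libraries are too small for a search for outlying samples, so none was made.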

How the results depend on the processing

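No paired analysis was possible because the replicate numbers differ between the groups. The filter was applied anew in each setting, so the genes tested differ between some of them. Under the rule that gave the 837 genes, 1 gene was called with a pseudocount of 0.1, 1 with library weights, 2 by voom, and 0 to 1 with a library left out. Higher genes at p under 0.05 (31) numbered 51 with no filter, 14 at an FPKM of at least 5, 50 with all 15 libraries, 62 with weights, 5 with vehicle library 4 alone, and 7 to 88 with a library left out. Lower genes (2) numbered 15, 1, 7 and 7 with no filter, an FPKM of 5, all libraries and vehicle library 4 alone, 9 and 21 with median-of-ratios and quantile scaling, 5 with missing rows allowed, 24 by voom and 0 to 12 with a library left out. Higher genes without overlap (68) numbered 106, 22, 41 and 134 with no filter, an FPKM of 5, quantile scaling and missing rows, and 53 to 165 with a library left out. Lower ones (2) numbered 13, 1, 34, 47, 27 and 257 with no filter, an FPKM of 5, median-of-ratios scaling, quantile scaling, missing rows and vehicle library 4 alone, and 2 to 96 with a library left out. The median difference was -0.56 with vehicle library 4 alone and -0.03 to 0.87 with a library left out.

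Over the extended set, 1 gene was called with a pseudocount of 0.1, 2 with quantile scaling, 11 with weights, 7 by voom, and 0 to 1 with a library left out. Higher genes at p under 0.05 (130) numbered 64 at an FPKM of 5, 271 with all libraries, 537 with weights, 209 by voom, 44 with vehicle library 4 alone, and 18 to 355 with a library left out. Lower genes (26) numbered 11, 144, 116, 234 and 240 under these settings, 136 and 163 with median-of-ratios and quantile scaling, and 5 to 171 with a library left out. Higher genes without overlap (337) numbered 135 at an FPKM of 5, 666 with vehicle library 4 alone, and 270 to 1047 with a library left out. Lower ones (64) numbered 114 with no filter, 23 at an FPKM of 5, 282 and 308 with median-of-ratios and quantile scaling, 2296 with vehicle library 4 alone, and 69 to 768 with a library left out. The median difference was -0.77 with vehicle library 4 alone and -0.28 to 0.80 with a library left out. Between doses, under the rule that gave 1012 genes, 1 was called with missing rows allowed, 1 by voom, and 0 to 40 with a library left out. Under the rule that gave 8908 genes, the 1 call became 0 with a pseudocount of 0.1, no filter, an FPKM of 5, median-of-ratios or quantile scaling. It became 2 with all libraries, 4 with weights, 8 by voom, and 0 to 3 with a library left out.

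Signs reversed for Gclc with vehicle library 4 alone (-1.45), for Uqcrb likewise (-1.04), for Txnrd1 by voom (-0.38) and with a library left out (-0.13 to 2.82), and for Srxn1 with a pseudocount of 0.1 (-0.52), median-of-ratios scaling (-0.51), quantile scaling (-0.23) and a library left out (-0.58 to 1.31). The cause of the reversals was not tested, and the voom value of Txnrd1 rests on at most 0.00869 estimated fragments in any library. With 3 libraries per group and a median SE of 1.52 on the log2 scale, changes of a few-fold could not be detected, and genes at 10 fragments or fewer carry wide counting error.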

Other observations

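Among 13 measured small nuclear RNA genes, a class not chosen in advance, 12 were above 0 in the difference between low-dose cymopol and vehicle, with a median of 1.45 beside 0.30 for all 6703 genes, and 4 were higher without overlap, beside 5.03% of all genes. Rnu11 and Rnu12, the U11 and U12 RNAs of the minor spliceosome, were 2 of these 4. Rnu12 had an FPKM of 12.3, 163 and 0 in vehicle libraries 2, 4 and 5 and 186, 217 and 195 in low-dose libraries 33, 34 and 35, from about 1.99, 13 and 0 fragments against 9, 7 and 13. Rnu11 had 29.3, 18.8 and 0 against 309, 40.4 and 299. Both passed limma with library weights in the extended table, at adjusted p-values of 0.00567 and 0.00854, and neither passed without weights (adjusted p = 0.999 for each). Snhg12, a small nucleolar RNA host gene, also passed with weights (adjusted p = 0.00567), with 0.789, 282 and 0 against 129, 239.9 and 157, so that its groups overlapped. Copies of small nuclear RNA genes share sequence, which can make their values uncertain, and this was not tested here. Of 27 small nucleolar RNA genes 15 were above 0, with a median of 0.77, and 1 was without overlap.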
